A study of Mus musculus with 10 samples.

Results

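The genes described here are 10 transcripts of T cells and natural killer (NK) cells, Cd3e, Cd3g, Trbc2, Cd4, Lck, Ms4a4b, Nkg7, Gzma, Klrd1 and Klri2, out of 53715 gene identifiers counted in each library. They were a list of gene symbols drawn up with earlier results of these data known, and all 10 were matched to counted identifiers. Counts of calls among them, set beside shares of all genes below, are therefore descriptions. The libraries came from untreated C57BL/6 mice (C57BL/6 J in the study's methods) aged 3 months. The brains were perfused, the midbrain (Mdb) and the striatum (Str) were dissected and digested with papain, and cells positive for CD11b were collected with magnetic beads after a Percoll step and lysed for poly-A RNA. The pilot cohort held 2 Mdb and 2 Str libraries, and the second cohort held 2 Mdb and 2 Str libraries whose labels named 1 region throughout. The other 2 libraries of the second cohort carried labels that named both regions and entered no comparison. No group differed from another in genotype, treatment or age, so the region was the only labelled difference within a cohort. By the study's description each experiment used fewer mice than libraries and took both regions from them, so Mdb and Str libraries of a cohort share animals. No label ties a library to its mouse, the fits treat the libraries as separate, and the p-values measure the spread between these libraries only. The beads select on 1 surface protein, which microglia share with monocytes, neutrophils, macrophages and many NK cells.

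T cells recognise antigen through a receptor whose chains are held at the membrane by the CD3 proteins, and a signal starts when the kinase LCK, carried by CD4 or CD8, phosphorylates that complex. NK cells lack this receptor, read their targets through lectin-like receptors of the killer cell family, and share with cytotoxic T cells the granules that carry granzymes. Both kinds of lymphocyte are rare in the healthy brain, where microglia are the main immune cell.

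The summed transcripts of these genes were higher in the midbrain than in the striatum in both cohorts. The sum was 96.2 and 87.2 CPM (counts-per-million, scaled with TMM factors) in the Mdb pilot libraries and 20.8 and 42.3 CPM in the Str pilot libraries. In the second cohort it was 273 and 137 CPM in Mdb replicates 1 and 3, and 51.1 and 11.99 CPM in Str replicates 1 and 3. Every Mdb library lay above every Str library, and Mdb replicate 1 was the highest of the 8. The group means were 91.7 ± 6.37 CPM (SD, n = 2) in the Mdb pilot and 31.5 ± 15.2 CPM (SD, n = 2) in the Str pilot, a ratio of 2.91. They were 205 ± 95.9 CPM (SD, n = 2) and 31.6 ± 27.7 CPM (SD, n = 2) in the second cohort, a ratio of 6.50. The pilot ratio was 2.17 without Str pilot replicate 1 and 4.41 without Str pilot replicate 2. In the second cohort the ratio was 17.1 without Str replicate 1 and 4.01 without Str replicate 3. In bulk libraries, more cells of a type and more RNA per cell cannot be told apart.

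The raw counts behind these sums were small. They were 564 and 485 in the Mdb pilot, 110 and 363 in the Str pilot, 1288 and 593 in the Mdb libraries of the second cohort, and 141 and 7 in its Str libraries. The libraries held 575709 to 8463782 counts in all, a range of 14.7-fold, and Str replicate 3 was the shallowest. This library also stood apart from the rest, with a median correlation of 0.878 with the other libraries where the others had 0.909 to 0.943. Before TMM scaling its 7 counts amounted to 12.2 CPM with an exact (Clopper-Pearson) 95% interval of 4.89 to 25.1 CPM, which covers counting error only. The interval of Str replicate 1 was 42.1 to 59.0 CPM, so the 2 Str libraries of this cohort differed by more than counting error.

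**Figure D1:**
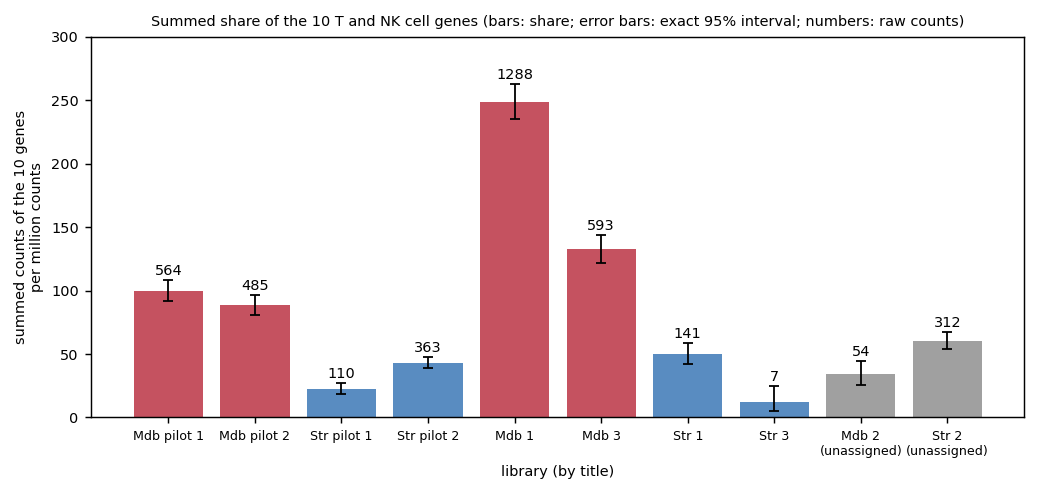
Summed CPM, before TMM scaling, of the 10 T and NK cell genes (vertical axis, starting at 0) in each of the 10 libraries by title (horizontal axis), with Mdb in red, Str in blue and the unassigned libraries in grey. The error bars are exact 95% intervals of counting and the numbers are raw counts. The highest Str library, Str 1 with 141 counts, lies below all 4 Mdb libraries.

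Gzma supplied 64.4% of the 3551 counts of the 10 genes over the 8 libraries, and Nkg7 supplied 17.9%. These percentages are shares of reads and were not divided by transcript length. Leaving Gzma out gave ratios of 2.90 in the pilot and 4.60 in the second cohort. The CD3 genes of T cells, by contrast, were almost absent. Cd3e had 3 counts and Cd3g had 9 counts in the 37575534 counts of the 8 libraries, while Trbc2, a T cell receptor gene, had 73. Against the name of the list, the defining CD3 chains of T cells were thus near 0, and most of its reads came from genes that NK cells and cytotoxic T cells share.

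**Figure D2:**
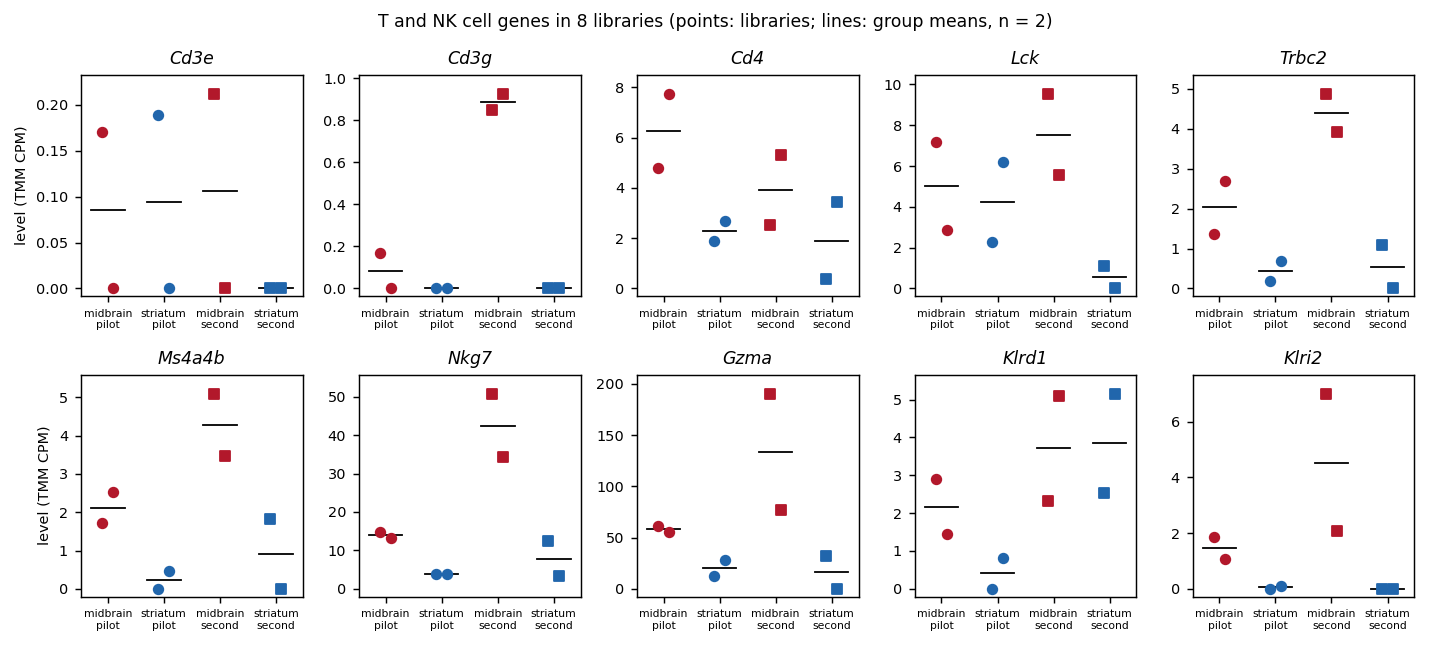
Level of each gene in TMM CPM (vertical axes, each with its own range) in the 4 groups (horizontal axis), with 1 point per library and a line at the mean of 2 libraries. Mdb points are red and Str points blue, circles are the pilot and squares the second cohort. Nkg7, Gzma, Trbc2, Ms4a4b and Klri2 have both Mdb points above both Str points in each cohort.

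Cd3e (ENSMUSG00000032093.7, GRCm38 chr9:44998740-45009627, minus strand), which encodes the CD3 epsilon chain, had 1 and 0 counts in the Mdb pilot, 1 and 0 in the Str pilot, 1 and 0 in the Mdb libraries of the second cohort and 0 in both Str libraries. No library exceeded 1 count, so no regional difference was detectable at this depth. Its exons share 135 bases, or 3.31%, with an antisense gene, Gm48719, and the counting did not use strand. Cd3g (ENSMUSG00000002033.14, chr9:44969572-44980431, minus strand), the gene of the CD3 gamma chain next to Cd3e on the chromosome, had 1 and 0 counts in the Mdb pilot and 0 in both Str pilot libraries. It had 4 counts in each Mdb library of the second cohort and 0 in each Str library, or 0.847 and 0.925 CPM against 0. The 8 counts against 0 set no fold above 1, since allowing 3 counts in each Str library gave a lower bound of 0.285. Neither CD3 gene passed the filter on low counts, for which at least 50% of the libraries of a fit had to reach 6 counts.

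Trbc2 (ENSMUSG00000076498.2, chr6:41546730-41548352, plus strand) encodes a constant region of the T cell receptor beta chain. It had 8 and 15 counts in the Mdb pilot and 1 and 6 in the Str pilot, or 1.37 and 2.70 CPM against 0.189 and 0.699 CPM. In the second cohort it had 23 and 17 counts in Mdb and 3 and 0 in Str, or 4.87 and 3.93 CPM against 1.09 and 0 CPM. The groups did not overlap in either cohort. The log2 fold change of Mdb over Str (voom with limma) was 1.95 with a standard error (SE) of 0.92 in the pilot and 2.07 (SE 0.78) in the second cohort, and the unadjusted p-values of the limma fits were 0.0644 and 0.0223. Both missed the threshold of 0.01 used within a cohort. Reads that map to both Trbc2 and its near-identical copy Trbc1 are left out at the default counting settings, so the level of Trbc2 is uncertain. Trbc1 gave 2.25 (SE 0.48) in the fit of both cohorts, with an adjusted p of 0.0511 in limma.

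Cd4 (ENSMUSG00000023274.14, chr6:124864692-124888221, minus strand), the coreceptor gene of helper T cells, had 28 and 43 counts in the Mdb pilot and 10 and 23 in the Str pilot, or 4.78 and 7.73 CPM against 1.89 and 2.68 CPM. The second cohort gave it 12 and 23 counts in Mdb and 1 and 2 in Str, or 2.54 and 5.32 CPM against 0.363 and 3.43 CPM. The groups were apart in the pilot and overlapped in the second cohort, where the 2 counts of the shallow Str replicate 3 gave a level above Mdb replicate 1. The log2 fold changes were 1.30 (SE 0.51) and 1.55 (SE 0.96), with unadjusted limma p-values of 0.0300 and 0.135.

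Lck (ENSMUSG00000000409.14, chr4:129548344-129573641, minus strand) encodes the kinase that starts the receptor signal. In the pilot it had 42 and 16 counts in Mdb and 12 and 53 in Str, or 7.17 and 2.88 CPM against 2.27 and 6.18 CPM, and the regions overlapped. The Mdb libraries of the second cohort held 45 and 24 counts and the Str libraries 3 and 0, or 9.53 and 5.55 CPM against 1.09 and 0 CPM, with no overlap. The log2 fold change was 0.12 (SE 0.62) in the pilot and 2.80 (SE 0.79) in the second cohort, where its unadjusted limma p of 0.00472 passed the threshold. The difference between the cohorts was 2.66 (SE 1.10), with an unadjusted p of 0.0345 and an adjusted p of 0.860 for the interaction term in limma. The difference thus failed the correction over all genes. Mir8119 shares 25 bases of the exons of Lck, or 0.854%.

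Ms4a4b (ENSMUSG00000056290.15, chr19:11443553-11463549, plus strand) encodes a membrane protein of T cells and NK cells. It had 10 and 14 counts in the Mdb pilot and 0 and 4 in the Str pilot, or 1.71 and 2.52 CPM against 0 and 0.466 CPM. The libraries of the second cohort held 24 and 15 counts in Mdb and 5 and 0 in Str, or 5.08 and 3.47 CPM against 1.81 and 0 CPM. The groups did not overlap in either cohort, and Mdb was higher by a log2 fold change of 3.22 (SE 1.08) in the pilot and 1.63 (SE 0.80) in the second cohort. The unadjusted limma p-values of 0.0157 and 0.0659 missed the threshold. Ms4a4b belongs to a cluster of similar genes, and reads shared with a paralog such as Ms4a4c are a source of uncertainty.

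The granule genes carried most of the sum. Nkg7 and Gzma are shown with the 250 bases before their RefSeq start sites (GRCm38.p6, each on the strand of its gene), because both were called higher in Mdb in each cohort. Capitals mark matches to 3 short motifs bound by lymphocyte factor families, searched on both strands. The T-box motif was AGGTGT, which reads ACACCT on the other strand. The RUNX motif was TGTGGT, which reads ACCACA on the other strand. The ETS motif was AGGAAG, which reads CTTCCT on the other strand. The Nkg7 window is chr7:43436888-43437137 on the plus strand and the Gzma window is chr13:113100982-113101231 on the minus strand.
Nkg7: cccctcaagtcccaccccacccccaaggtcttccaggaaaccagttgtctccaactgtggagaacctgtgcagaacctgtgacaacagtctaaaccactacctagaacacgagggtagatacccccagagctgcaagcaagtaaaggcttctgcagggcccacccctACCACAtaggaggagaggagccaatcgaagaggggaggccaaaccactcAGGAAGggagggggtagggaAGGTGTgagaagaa
Gzma: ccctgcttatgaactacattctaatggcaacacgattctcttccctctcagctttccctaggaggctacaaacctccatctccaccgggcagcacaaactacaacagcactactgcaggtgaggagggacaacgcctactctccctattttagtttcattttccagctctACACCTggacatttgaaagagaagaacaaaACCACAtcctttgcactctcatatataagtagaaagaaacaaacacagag
Nkg7 held the T-box letters 14 bases, the ETS letters 34 bases and the RUNX letters 83 bases before the start. In the annotation used for counting, Nkg7 starts at 43437073, inside this window, and its T-box and ETS letters lie past that start. Gzma held the T-box letters 80 bases and the RUNX letters 50 bases before the start, and no ETS letters. No match overlapped another. RefSeq held a promoter for 6 of the 10 genes (Cd3e, Cd3g, Lck, Ms4a4b, Nkg7 and Gzma). Of these, 4 held the T-box letters, 3 the RUNX letters and 3 the ETS letters, where 11.8%, 14.0% and 29.5% of 32851 mouse promoters of the same length did. A match is a run of letters and no evidence of binding.

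Nkg7 (ENSMUSG00000004612.9, chr7:43437073-43438249, plus strand), which encodes a granule membrane protein of NK cells and cytotoxic T cells, had 87 and 74 counts in the Mdb pilot and 20 and 32 in the Str pilot, or 14.9 and 13.3 CPM against 3.78 and 3.73 CPM. In the second cohort it had 239 and 148 counts in Mdb and 34 and 2 in Str, or 50.6 and 34.2 CPM against 12.3 and 3.43 CPM. Both Mdb libraries lay above both Str libraries in each cohort, and the Mdb levels of the second cohort were above those of the pilot. The log2 fold change was 1.84 (SE 0.36) in the pilot and 2.16 (SE 0.57) in the second cohort, with unadjusted limma p-values of 0.000663 and 0.00286, both past the threshold. The pooled level was 3.76-fold higher in the Mdb pilot (exact 95% interval of counting 2.74 to 5.24) and 3.97-fold higher in Mdb of the second cohort (2.82 to 5.76).

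Gzma (ENSMUSG00000023132.8, chr13:113093825-113100981, minus strand) encodes granzyme A, a serine protease that NK cells and cytotoxic T cells release into their targets. It had 359 and 309 counts in the Mdb pilot and 66 and 237 in the Str pilot, or 61.3 and 55.6 CPM against 12.5 and 27.6 CPM. The second cohort gave it 896 and 331 counts in Mdb and 88 and 0 in Str, or 190 and 76.6 CPM against 31.9 and 0 CPM. The regions did not overlap, Mdb replicate 1 of the second cohort was the highest library and Str replicate 3 the lowest. At its depth, Str replicate 3 would have held 18.6 counts at the level of Str replicate 1 and 77.8 at the mean Mdb level, against the 0 observed. The log2 fold change was 1.52 (SE 0.33) in the pilot and 3.47 (SE 1.09) in the second cohort, with unadjusted limma p-values of 0.00136 and 0.00872, and Gzma was called in both.

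**Figure D3:**
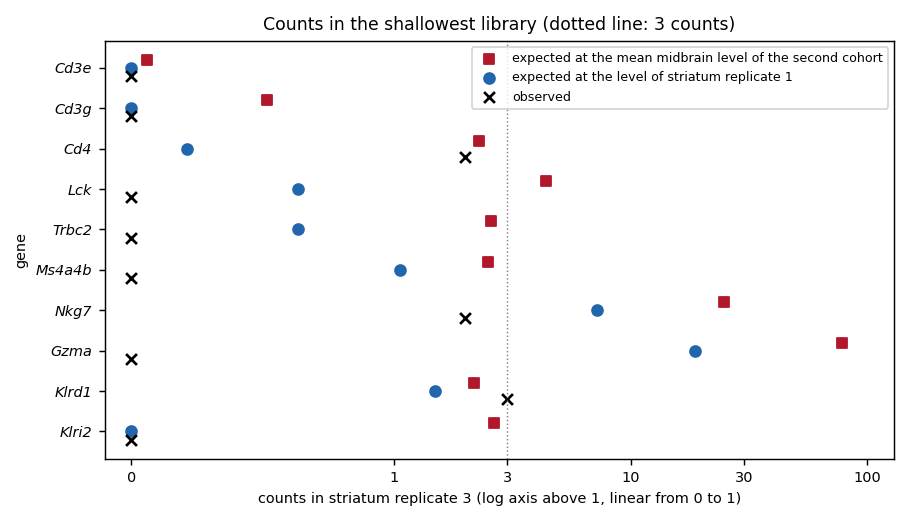
Counts of each gene (vertical axis) in Str replicate 3, the shallowest library (horizontal axis, linear from 0 to 1 and logarithmic above). Crosses are observed counts, red squares the counts its depth would give at the mean Mdb level of the second cohort, blue circles those at the level of Str replicate 1, and the dotted line marks 3 counts. Gzma and Nkg7, with 0 and 2 counts observed, lie far left of their squares at 77.8 and 24.8, and apart from Lck at 4.40 the other squares lie below 3 counts.

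For the other genes the shallow library carried little information. A count of 0 in Str replicate 3 allows up to 5.21 CPM before TMM scaling, which is above the mean Mdb level of Trbc2 (4.40 CPM), Ms4a4b (4.28 CPM) and Klri2 (4.54 CPM) in that cohort. The Str level of these genes in the second cohort therefore rests on Str replicate 1.

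Klrd1 (ENSMUSG00000030165.16, chr6:129591782-129598775, plus strand) encodes CD94, the chain that pairs with NKG2 receptors on NK cells. It had 17 and 8 counts in the Mdb pilot and 0 and 7 in the Str pilot, or 2.90 and 1.44 CPM against 0 and 0.816 CPM, without overlap. In the second cohort, 11 and 22 counts were found in Mdb and 7 and 3 in Str, or 2.33 and 5.09 CPM against 2.54 and 5.14 CPM. Here the regions overlapped almost fully, and the highest level was that of Str replicate 3, on 3 counts. The log2 fold change was 2.70 (SE 1.16) in the pilot, with an unadjusted limma p of 0.0447, and its 95% interval in the second cohort ran from -1.66 to 1.65. The difference between the cohorts, second minus pilot, was -2.87 (SE 1.33), with an adjusted p of 0.860 in limma.

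Klri2 (ENSMUSG00000043932.5, chr6:129729041-129740484, minus strand), a lectin-like receptor gene of NK cells in the same gene complex as Klrd1, had 11 and 6 counts in the Mdb pilot and 0 and 1 in the Str pilot, or 1.88 and 1.08 CPM against 0 and 0.117 CPM. The libraries of the second cohort held 33 and 9 counts in Mdb and 0 in both Str libraries, or 6.99 and 2.08 CPM against 0. The regions did not overlap in either cohort, and the pooled ratio in the pilot was 20.6 with an exact interval of counting of 3.23 to 863, since it set 17 counts against 1. With 3 counts allowed in each Str library of the second cohort, Klri2 was at least 1.46-fold higher in Mdb. The log2 fold changes were 3.52 (SE 1.04) and 3.34 (SE 1.04), with unadjusted limma p-values of 0.00787 and 0.00810, and Klri2 was called in both. A fitted fold change against counts of 0 depends on the offset that voom adds and is no bound. Its paralog Klri1 had at most 1 count in any library, although reads that mapped to both genes are left out at the default counting settings.

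Of the 10 genes, 8 were tested in each cohort. The pilot called 3 of them higher in Mdb (Nkg7, Gzma and Klri2) and none lower, at an unadjusted p under 0.01. Across the 14972 genes tested, 2.09% were called higher, 0.548% lower and 2.64% in either direction. The second cohort called 4 higher (Lck, Nkg7, Gzma and Klri2) and none lower, where 2.88% of 13486 genes were called higher, 0.593% lower and 3.47% in either direction. In limma 0 members reached an adjusted p under 0.05 in either cohort, where the lowest values were 0.173 and 0.179. An unadjusted p under 0.05 in limma was reached by 6 and 5 members, without a share of all genes to set beside it. At an adjusted p under 0.05 the quasi-likelihood test of edgeR also gave 0 in both. DESeq2 gave 2 in the pilot and 1 in the second cohort, and left 4 and 6 of the 8 members without an adjusted p. Klri2 and Ms4a4b in the pilot, and Cd4, Lck, Trbc2, Ms4a4b and Klri2 in the second cohort, passed the filter on low counts through their Mdb libraries alone, so the tested genes are not a fair sample of the list. The number of calls changed with single libraries, both among the members and over all genes. In the second cohort fewer members were called without Str replicate 3 and more without Str replicate 1. Such a fit keeps 1 library in a group, so its calls are not counted here. Without either Mdb replicate of the second cohort only 3 members were tested. In the pilot, leaving out either Mdb replicate left Ms4a4b and Klri2 untested. With the 2 unassigned libraries added, by title or by the name of the deposited table, 0 of the 6 members tested were called in the second cohort. The filter then left out Trbc2 and Klri2, so Klri2 was not tested. Of 13254 genes 132 were called by title and 692 by the name of the table.

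**Figure D4:**
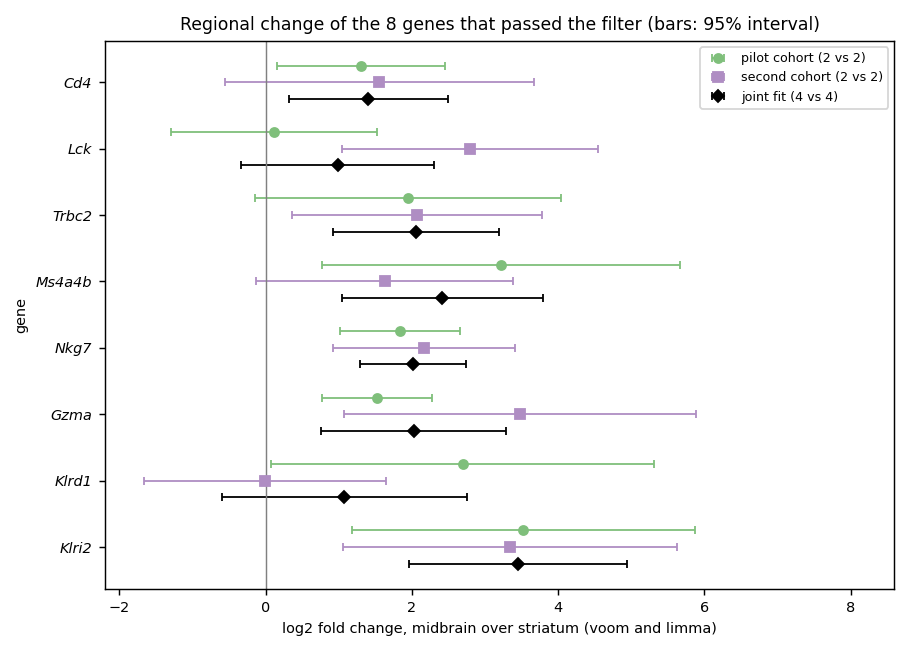
Log2 fold change of Mdb over Str (horizontal axis) with its 95% interval for the 8 genes tested (vertical axis), from voom with limma, in the pilot (green circles), the second cohort (purple squares) and both cohorts together (black diamonds). All 8 joint values lie right of 0, from 0.98 for Lck to 3.45 for Klri2, while Lck in the pilot and Klrd1 in the second cohort sit near 0.

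Both cohorts were then fitted together, adjusting for the cohort, and genes were called at an adjusted p under 0.05. Nkg7 was higher in Mdb by a log2 fold change of 2.01 (SE 0.33, adjusted p = 0.0209 in limma) and Klri2 by 3.45 (SE 0.68, adjusted p = 0.0410 in limma). These were 2 of 8 members tested, both higher, where 0.975% of 14053 genes were called higher, 0.0854% lower and 1.06% in either direction. Klri2 and Ms4a4b passed the filter of this fit through the Mdb libraries alone, so the count of calls and the median below describe the genes that passed and are no sample of the list. The other 6 had positive values that did not pass in limma, which were 2.42 for Ms4a4b (adjusted p = 0.0983), 2.06 for Trbc2 (0.0887), 2.02 for Gzma (0.125), 1.40 for Cd4 (0.218), 1.07 for Klrd1 (0.559) and 0.98 for Lck (0.487). The median over the tested members was 2.02, beside 0.04 over all genes. No member was called when Mdb pilot replicate 1, Str pilot replicate 1, Str replicate 1 or Str replicate 3 was left out, with adjusted p-values in limma of 0.0854, 0.0635, 0.119 and 0.0656 for Nkg7. Its log2 fold changes in these fits were 2.00, 2.06, 2.11 and 1.80, and of all genes 0, 9, 0 and 3 were called. Klri2 was not tested in any fit that left out a Mdb library, and had adjusted p-values in limma of 0.0894, 0.177 and 0.109 without Str pilot replicate 1, Str replicate 1 and Str replicate 3. Adding the 2 unassigned libraries left 0 members called by title and 1, Ms4a4b, by the name of the table. Of all 13814 genes tested, 0 and 440 were called in these fits, and the filter left Klri2 out.

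By plain order of the levels, both Mdb libraries lay above both Str libraries for 7 of the 10 genes in the pilot (all but Cd3e, Cd3g and Lck), where 23.1% of the genes of the joint fit did. This held for 7 in the second cohort as well (all but Cd3e, Cd4 and Klrd1), against 23.5%. It held in both cohorts for 5 (Trbc2, Ms4a4b, Nkg7, Gzma and Klri2), against 9.05%. The difference in regional change between the cohorts passed an adjusted p of 0.05 in limma for 0 of the 8 members and for 0% of all genes, and in edgeR for 0 members. At an unadjusted p under 0.05, 1 member passed in limma (Lck) and 1 in the quasi-likelihood test of edgeR, beside 5.49% of all genes in limma, and the adjusted p-values of the members ran from 0.860 to 0.992 in limma. With 2 libraries per group such a difference is estimated loosely, as the interval for Gzma, from -1.05 to 4.83 on the log2 scale, shows.

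By role, the sum of the receptor, coreceptor and kinase genes (Cd3e, Cd3g, Trbc2, Cd4 and Lck) was 13.5 ± 0.242 CPM (SD, n = 2) in the Mdb pilot and 7.05 ± 3.55 CPM (SD, n = 2) in the Str pilot, a ratio of 1.91. In the second cohort it was 16.9 ± 1.61 CPM (SD, n = 2) and 2.98 ± 0.628 CPM (SD, n = 2), a ratio of 5.66. The granule genes Gzma and Nkg7 together were at 72.5 ± 5.11 CPM and 23.8 ± 10.7 CPM (SD, n = 2) in the pilot, a ratio of 3.05. In the second cohort they were at 176 ± 91.7 CPM and 23.8 ± 28.9 CPM (SD, n = 2), a ratio of 7.37. That ratio was 51.3 without Str replicate 1 and 3.97 without Str replicate 3, which held 2 counts of them. The lectin receptors Klrd1 and Klri2 were at 3.65 ± 1.598 CPM and 0.466 ± 0.659 CPM (SD, n = 2) in the pilot, a ratio of 7.82, and at 8.25 ± 1.52 CPM and 3.84 ± 1.84 CPM (SD, n = 2) in the second cohort, a ratio of 2.15. Without Str pilot replicate 1, which had 0 counts of them, the pilot ratio was 3.91, and without Str replicate 3, which had 3, the ratio of the second cohort was 3.25. For the receptor, coreceptor and kinase genes the pilot ratio was 1.41 without Str pilot replicate 1 and 2.97 without Str pilot replicate 2. None of these ratios was tested.

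Other genes of the same cells were examined as lists. Of 25 other NK and cytotoxic cell genes, 14 were tested in the joint fit. All 14 had positive values with a median log2 fold change of 2.12, and 1 was called higher and none lower. Of all genes 0.975% were called higher in this fit. An unadjusted p under 0.05 in limma was found for 13, without a share of all genes to set beside it. Of the 14, 3 (Klre1, Tbx21 and Xcl1) passed the filter through Mdb libraries alone and had to be higher there, and the median of the others was 1.83. The called gene was Ccl5, a chemokine gene of activated lymphocytes, at 2.43 (SE 0.34, adjusted p = 0.0174 in limma). The next most abundant were Gzmb (granzyme B) at 1.83 (adjusted p = 0.107 in limma), Il2rb (the beta chain of the interleukin receptor used by NK cells) at 2.37 (0.110) and Prf1 (perforin) at 1.63 (0.0932). With the same threshold edgeR called 6 of the 14 and DESeq2 called 10. Over all 14053 genes edgeR and DESeq2 called 237 and 544, against 149 in limma. In the pilot 5 of 14 tested were called higher (Klrk1, Klre1, Tbx21, Il2rb and Ccl5, named after their values were seen). In the second cohort 7 of 16 tested were called higher. The shares of all genes called higher were 2.09% and 2.88%. Klre1, Tbx21 and Xcl1 in the pilot, and 10 of the 16 in the second cohort, passed through Mdb libraries alone. Klre1, whose protein pairs with that of Klri2, was at 4.75 on the log2 scale in the pilot and 2.02 in the second cohort. The summed level of the list ran from 236 to 615 CPM in the 4 Mdb libraries and from 30.8 to 138 CPM in the 4 Str libraries. Klrc1, Klri1 and Gzmk had at most 3 counts in every library.

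The other T cell genes had a median close to that of all genes in the joint fit and above it in the second cohort. Of 31, 15 were tested jointly, 11 had positive values, 0 were called in limma, and the median was 0.11. At an unadjusted p under 0.05 there were 4, and edgeR and DESeq2 each called 1. The most abundant, Lcp2, Fyn and Thy1, which are also expressed outside T cells, were at 0.0023, 0.11 and 0.0059 on the log2 scale. Among 13 tested in the second cohort 11 had positive values with a median of 1.596, but 7 of the 13 (Cd3d among them) passed the filter through Mdb libraries alone, and the median of the others was 0.28. There limma called 1 higher (Trbc1), edgeR called 2 and DESeq2 called 1. In the pilot limma called 0 of 17, where 2 had an unadjusted p under 0.05, and edgeR and DESeq2 also called 0. The summed level ran from 217 to 348 CPM in Mdb and from 191 to 320 CPM in Str, ranges that overlapped. Lcp2 alone held 748 of the 1273 counts of this sum in Mdb pilot replicate 1 and 161 of 187 in Str replicate 3. The sum therefore says little about the rarer T cell genes. Themis had no count in any library, and Sh2d1a and Foxp3 had at most 3. Cd3d, another CD3 gene, had at most 10 counts and Cd8a at most 6 in any of the 8 libraries. Other genes of the list were higher, with at most 85 counts for Cd7, 55 for Trbc1, 32 for Cd2 and 31 for Cd69. Their joint log2 fold changes were 3.69, 2.25, 1.40 and 1.33, with adjusted p-values of 0.116, 0.0511, 0.219 and 0.218 in limma. Lef1, Bcl11b, Icos and Il7r had negative values, from -0.69 to -0.096. The genes from Cd3d on were named after their values were seen.

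**Figure D5:**
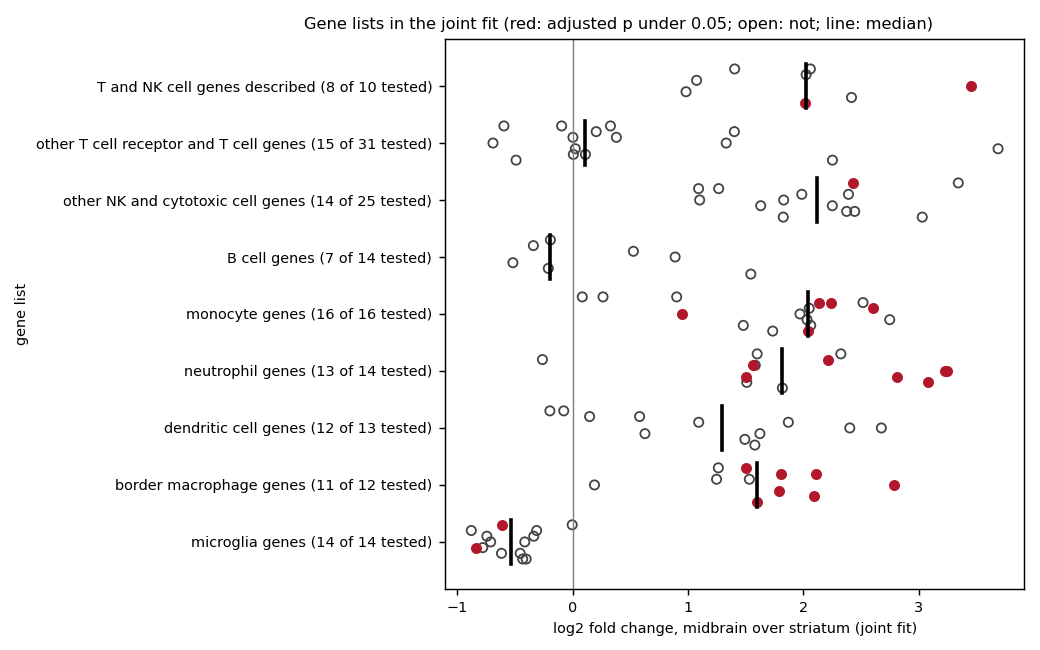
Log2 fold change of Mdb over Str in the fit of both cohorts (horizontal axis) for the tested genes of each list (vertical axis). Each circle is a gene, filled red where the adjusted p was under 0.05 in limma, and the black lines are medians. The T and NK cell genes described here and the other NK genes have medians of 2.02 and 2.12, the other T cell genes 0.11, and the microglia genes -0.54.

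Markers of further cell types moved with the region in the same libraries. For comparison, 0.975% of all genes were called higher and 0.0854% lower in the joint fit in limma. All 16 monocyte genes had positive values in the joint fit with a median of 2.04, 5 were called higher (among them Ly6c2 at 2.24 and Ccr2 at 2.14, genes of classical monocytes), and their sum was 1317 to 4334 CPM in Mdb and 563 to 889 CPM in Str. Of 13 neutrophil genes tested, 12 had positive values and 7 were called higher (S100a9, a calcium-binding protein gene of granulocytes, at 3.08) and the median was 1.82, with sums of 1231 to 6881 CPM and 901 to 1057 CPM. All 11 tested genes of border macrophages had positive values, and 7 were called higher (Pf4, a chemokine gene, at 2.11), with sums of 1962 to 3133 CPM and 620 to 1343 CPM. Of 12 dendritic cell genes tested, 10 had positive values with a median of 1.29, and 0 were called in limma, 1 in edgeR and 4 in DESeq2, while 6 had an unadjusted p under 0.05. The B cell genes had 3 of 7 positive values and a median of -0.19, with 0 called in limma, 1 in edgeR, 1 in DESeq2 and 1 at an unadjusted p under 0.05. The 14 microglia genes had no positive value, 2 were called lower (Siglech at -0.84 and Olfml3 at -0.62), and their sum was 14996 to 18471 CPM in Mdb and 20772 to 27916 CPM in Str. In each library the microglia sum was far above that of the 10 T and NK cell genes. The part of these other cell types in the regional difference of the T and NK cell genes was not tested.

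Across the 8 libraries, the genes whose log2(CPM + 1) followed the summed level of the 10 most closely, among 12683 genes with a mean of at least 10 counts, were Sh3bgrl3 (Pearson r = 0.988), Mcub, Rps15, Ccl5, Slc2a6, Ptpn7, Ndufb8, Ifi211, Clec2i and Siglec1 (r = 0.980). Ccl5 was also on the list of NK and cytotoxic cell genes and Siglec1 on that of border macrophage genes. The 8 points share cohorts, regions and the shallow library, and the correlations are descriptions.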

How the data were processed

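The deposited values are raw read counts that the authors made by aligning with STAR 2.5.3a (GRCm38) and counting over exons of Gencode M17, strand ignored, in featureCounts 1.6.0. Replicates were not pooled. Per the file headers, default settings were used. The RNA was prepared with MARS-seq, which reads the 3′ ends of transcripts. No use of molecular identifiers is stated, so the counts were treated as reads. Symbols were matched to 53620 of 53715 gene identifiers.

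R 4.3.3 was used. TMM factors came from edgeR 4.0.16, and limma 3.58.1 (voom, lmFit, eBayes) tested all genes (two-sided, Benjamini-Hochberg adjustment), within each cohort and over 8 libraries with the cohort as covariate. A gene was kept in a fit where at least 50% of its libraries had 6 or more counts. The share of all genes at an unadjusted p under 0.05 was tallied only for the difference between cohorts. The floor was 3 counts in each library, and intervals cover counting error only. Alternatives included edgeR's quasi-likelihood test and DESeq2 1.42.0. The procedure was tested on simulated data. All 10 members were described. Genes named from other lists were up to 4 called and up to 4 most abundant, and exceptions are stated. The members and lists were chosen with earlier results of these data known. The pilot label was read as the first of 2 experiments.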

Additional observations from a re-analysis of the deposited data

Results flagged for a closer look

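The 2 libraries of the second cohort whose labels name both regions entered no comparison, and both held counts of the 10 T and NK cell genes above the 3 counts that a count of 0 allows. The library titled Mdb 2, which its other label places in the striatum, held 54 counts of these genes in 1584013, or 34.1 CPM before TMM scaling, with an exact 95% interval of 25.6 to 44.5. The library titled Str 2, which its other label places in the midbrain, held 312 counts in 5194739, or 60.1 CPM with an interval of 53.6 to 67.1. In Mdb 2 these included 29 counts of Gzma and 15 of Nkg7, and in Str 2 they included 220 of Gzma and 42 of Nkg7. Klri2 had 0 counts in Mdb 2 and 4 in Str 2, and Cd3g had 0 in both. Their region was not taken from these values.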

How the results depend on the processing

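The log2 fold changes of the 8 tested members kept their direction in all joint fits tried, 109 values kept their side of the threshold, 7 passed it newly and 9 no longer passed. The median ran from 1.49 to 2.20. For the difference between cohorts edgeR, the 1 alternative run, also gave 0 members. In the second cohort 1 member was called with DESeq2 and 1 with no filter, and 0 with at least 10 counts in every library, where no member could be tested. Placing the 2 unassigned libraries by title or by file name gave 0 member calls in that cohort, where the filter left Trbc2 and Klri2 out. In the joint fit, whose filter left Klri2 out, it gave 0 and 1 (Ms4a4b). Over all genes 132 and 692 were called in that cohort, and 0 and 440 in the joint fit. The strict filter gave 0 in the joint fit too, where it left 0 members to test. Sample quality weights gave 5 joint calls (Trbc2, Ms4a4b, Nkg7, Gzma and Klri2). Over all 14053 genes these weights gave 412 calls, against 149 in the main fit. The causes were not tested. Leaving out single libraries gave 2 to 6 calls in the pilot, 1 to 5 in the second cohort and 0 to 2 in the joint fit, and summed ratios of 2.17 to 4.41 and of 4.01 to 17.1; a group left with 1 library was assumed to vary like the others. Libraries with the same number in their titles did not deviate together (r = -0.0272 in the pilot and 0.0854 in the second cohort), so these numbers are not shown to pair them. The animals behind the libraries may be paired otherwise: the names of the deposited tables number the second cohort differently, and put Mdb replicate 3 with Str replicate 1. Pairs by those names, which place the 2 unassigned libraries too, had correlations of 0.0128, -0.246 and -0.0957. A fit with regions and replicate block by those names was chosen after seeing the data. It called 2 members in the second cohort and 2 in the joint fit (Nkg7 and Gzma in each). Over all genes it called 606 of 13254 in the second cohort and 342 of 13814 in the joint fit. With the replicate number of the titles as a block, 3, 4 and 3 members were called in the pilot, the second cohort and the joint fit, which added Gzma (2.06, adjusted p = 0.0293 in limma), and the calls over all genes were 401, 988 and 308. Depth limits the genes other than Gzma and Nkg7.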
